A study of Mus musculus with 12 samples.

Results

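The genes described here are 10 members of the Notch pathway and of the network of transcription factors that sets astrocyte or neuronal fate. They were taken from a fixed list of symbols (the receptors Notch1 and Notch2, the ligands Jag1 and Dll1, the nuclear effectors Rbpj, Hes1 and Hes5, the glial factors Sox9 and Nfia, and the proneural factor Neurod4) and matched to Ensembl identifiers among the 25442 genes present in both count tables. All 10 were found and all 10 passed the filter on low counts in every comparison. The members were chosen by their roles and with measured values of these libraries in view, the fall of Neurod4 with AAV-A2A in the astrocyte fraction, so the AAV-A2A against AAV-GFP values of the members in the astrocyte fraction are given as a description, without p values.

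Notch receptors are cleaved when a ligand of the Jagged or Delta-like family on a neighbouring cell binds them. The released intracellular part joins the DNA-binding protein RBPJ and switches on genes such as the Hes and Hey repressors, which in turn hold down proneural factors of the basic helix-loop-helix type. In the developing brain this circuit keeps precursors from becoming neurons and, with SOX9 and NFIA, favours the astrocyte fate. Mature astrocytes keep expressing several of its components.

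Male C57Bl6/J mice received bilateral injections into hippocampal CA1 at 2 months of age of an adeno-associated virus, AAV2/9-GfaABC1D-Bglob-GFP-WPRE (AAV-GFP, the control) or AAV2/9_GfaABC1D-Bglob-A2AR-WPRE (AAV-A2A), and were studied at 4 months, 2 months post-injection. GfaABC1D is a short astrocyte promoter, and A2AR is the adenosine A2A receptor. The whole left and right hippocampi were sorted with magnetic beads, first for ACSA-2, an astrocyte surface antigen, and the unbound cells for CD11b, which marks microglia. The 12 libraries form 4 groups of 3, named by vector and number. In the ACSA-2 fraction these were AAV-GFP libraries GFP-303, GFP-306, GFP-307 and AAV-A2A libraries A2A-309, A2A-310, A2A-313. In the CD11b fraction they were GFP-2328, GFP-2329, GFP-2331 and A2A-2343, A2A-2344, A2A-2347. Virus was placed in CA1 while the whole hippocampus was sorted, so each library mixes cells with and without vector. The libraries of the fractions carry different numbers and came in separate count tables, and whether they share animals is not given in the sources used here, so fraction and table cannot be told apart.

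Total counts on genes were 33937067 to 49217553 in the ACSA-2 libraries and 36098295 to 53206974 in the CD11b libraries. Levels are in CPM, which puts the counts of all libraries on the same total, with TMM scaling over the 12 libraries, and per kilobase of exon (CPM per kb) where genes are set side by side. Adora2a, the gene carried by AAV-A2A, stood at 23.1 to 25.4 CPM in ACSA-2 AAV-GFP libraries and 651 to 923 CPM in ACSA-2 AAV-A2A libraries. The 10 astrocyte markers summed to 24600.2 to 38697.6 CPM in the ACSA-2 fraction and 272 to 526 CPM in the CD11b fraction. The 10 microglia markers, led by Csf1r, summed to 9605 to 75269 CPM in the CD11b fraction and 407 to 765 CPM in the ACSA-2 fraction. Of the CD11b libraries, 3 stood apart, with 8 choroid plexus markers, led by the transthyretin gene Ttr, summing to 105674 CPM in GFP-2328, 85535 in GFP-2329 and 59115 in A2A-2347, against 26.3 to 144 CPM in the other 3. One ACSA-2 library, GFP-306, also stood apart for pineal genes, as described with Neurod4.

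In the AAV-GFP controls of the ACSA-2 fraction Sox9, Hes1 and Hes5 were the most abundant members. Sox9 was at 106 ± 35.2 CPM per kb (SD, n = 3), Hes1 at 77.8 ± 12.9 and Hes5 at 76.1 ± 6.99, and the ranges of these neighbours overlapped. Notch1 followed at 19.6 ± 3.82 CPM per kb and Notch2 at 17.2 ± 2.59, again overlapping each other but below Hes5 in every library. Nfia stood at 6.46 ± 1.48 CPM per kb, Jag1 at 2.26 ± 0.992, Dll1 at 0.449 ± 0.127 and Rbpj at 0.409 ± 0.127, the last pair overlapping. Neurod4 had a mean of 15.7 ± 19.95 CPM per kb, a spread larger than its mean, and overlapped Notch2 and Nfia. With AAV-A2A the order was led by Hes5 at 169.5 ± 17.4 CPM per kb, above Sox9 (99.8 ± 35.7) and Hes1 (70.1 ± 4.002) in every library, while Notch1 was at 5.24 ± 2.19 and Notch2 at 3.43 ± 0.860.

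**Figure D1:**
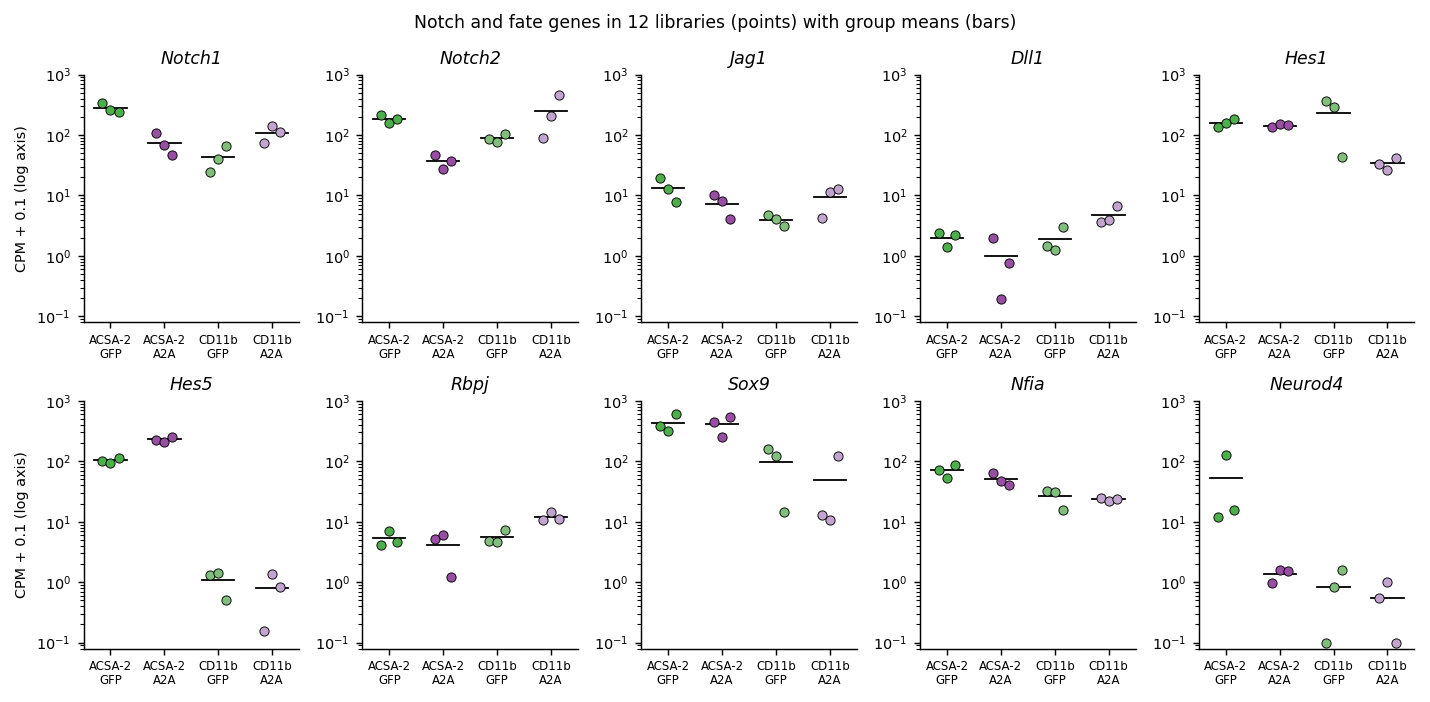
Level of each of the 10 genes in the 12 libraries, as CPM with 0.1 added on a log axis, with 1 point per library and a bar at the mean of each group of 3. In the ACSA-2 fraction Notch1, Notch2 and Neurod4 are lower and Hes5 higher in every AAV-A2A library than in every AAV-GFP library, and in the CD11b fraction Hes1 is high in 2 of the 6 libraries.

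Promoter stretches of a pair of genes are shown because Hes5 and Neurod4 are the members at the opposite ends of the ACSA-2 comparison. They are the 250 bases before the RefSeq start, from the RefSeq table for GRCm38.p6, in which 8 of the 10 genes had an entry. Hes5 (chromosome 4, plus strand, chr4:154960673-154960922) is shown with the core letters of RBPJ sites, TGGGAA or its reverse complement TTCCCA, in capitals. Neurod4 (chromosome 10, minus strand, chr10:130280255-130280504) is shown with N-box letters, CACNAG or its reverse complement CTNGTG, a sequence that Hes proteins are known to bind, in capitals.
Hes5: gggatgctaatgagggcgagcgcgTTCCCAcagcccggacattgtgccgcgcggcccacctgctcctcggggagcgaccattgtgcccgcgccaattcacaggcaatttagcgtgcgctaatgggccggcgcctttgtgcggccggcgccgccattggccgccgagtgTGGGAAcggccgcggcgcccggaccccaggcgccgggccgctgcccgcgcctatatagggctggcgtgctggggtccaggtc
Neurod4: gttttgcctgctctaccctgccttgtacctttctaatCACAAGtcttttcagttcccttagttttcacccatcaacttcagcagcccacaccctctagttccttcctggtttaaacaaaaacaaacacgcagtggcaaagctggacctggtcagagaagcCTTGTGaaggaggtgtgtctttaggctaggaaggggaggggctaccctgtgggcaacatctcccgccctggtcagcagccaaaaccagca

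The Hes5 stretch held 2 RBPJ cores, 226 and 82 bases before the start in opposite orientations, whereas 21.6% of 32851 RefSeq promoter stretches of this length held at least 1 and 2.77% at least 2. The Neurod4 stretch held no RBPJ core and 2 N-boxes, 213 and 90 bases before the start, while 36.7% of all stretches held at least 1 N-box and 8.18% at least 2. The second RefSeq entry of Neurod4 held 1 N-box, 206 bases before its start, and Notch1 and Notch2 held 1 each, 108 and 247 bases before theirs. Of the other members with an entry, Rbpj held 2 RBPJ cores in its first stretch, and Notch1, Notch2, Jag1, Dll1 and Nfia held none. E-boxes (CANNTG), which proneural factors bind, were found in Jag1, Dll1, Hes5, Rbpj and Nfia and in 66.2% of all stretches. None of these matches in the members overlapped a match of another motif. These are matches of letters on either strand and were not tested for binding.

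The comparison of AAV-A2A with AAV-GFP in the ACSA-2 fraction asks how astrocytes that gained A2AR differ in the Notch circuit. The receptors were lower, 1 of the Hes effectors was higher and the proneural factor was near the detection floor. By edgeR's quasi-likelihood test, 4 of the 10 members passed the threshold (adjusted p below 0.05 and a log2 fold change beyond 0.32), 3 lower and 1 higher, where 3.36% of the 16451 genes tested passed (0.176% higher and 3.19% lower). The same 4 had groups that did not overlap, as had 19.6% of all genes. As single libraries were left out, Notch2 and Hes5 passed in 6 of 6 fits, Notch1 in 5 and Neurod4 in 3, and DESeq2 gave Neurod4 no adjusted p. Since this contrast was known when the members were listed, nothing is read from these counts.

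Notch1, a receptor of the pathway (chromosome 2, 26457903 to 26516663), had 342 CPM in GFP-303, 257 in GFP-306 and 240.4 in GFP-307, against 108 in A2A-309, 68.5 in A2A-310 and 46.9 in A2A-313. The groups did not overlap, and the AAV-A2A mean was 3.75-fold lower (log2 fold change -1.88 ± 0.29, SE). Notch2, the second receptor (chromosome 3, 98013527 to 98150361), went from 214, 158 and 183 CPM to 46.3, 27.8 and 36.9 CPM, again without overlap. Its mean was 5.004-fold lower (log2 fold change -2.30 ± 0.23). In fits that left out 1 library at a time, the log2 fold change ranged from -2.24 to -1.65 for Notch1 and from -2.48 to -2.13 for Notch2.

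Both ligands had overlapping groups, and Dll1 had low counts (4 to 90 reads per ACSA-2 library, against 185 to 755 for Jag1). Jag1, a membrane ligand (chromosome 2, 137081456 to 137116644), was at 19.1, 12.7 and 7.59 CPM with AAV-GFP and 9.92, 7.86 and 4.003 CPM with AAV-A2A, a log2 fold change of -0.83 ± 0.45. Dll1 (chromosome 17, 15367354 to 15376872), a Delta-like ligand, was at 2.28, 1.28 and 2.12 CPM against 1.92, 0.0939 and 0.671 CPM, a log2 fold change of -1.06 ± 1.05 that ranged from -2.25 to -0.53 as single libraries were left out. Neither passed the threshold.

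The 2 Hes repressors differed from each other. Hes5 (chromosome 4, 154960923 to 154962371) was at 101.8, 95.3 and 114 CPM with AAV-GFP and 227, 209.6 and 257 CPM with AAV-A2A. Every AAV-A2A library was above every AAV-GFP library, with a 2.23-fold higher mean (log2 fold change 1.19 ± 0.17) and a range of 1.09 to 1.25 when single libraries were left out. Hes1 (chromosome 16, 30064384 to 30067796) was at 133, 156 and 186 CPM against 134, 151 and 144 CPM, and the groups overlapped (log2 fold change -0.12 ± 0.18). Rbpj, the DNA-binding partner of the cleaved receptors (chromosome 5, 53466152 to 53657362), stood at 4.08, 7.07 and 4.51 CPM against 5.11, 5.89 and 1.13 CPM (log2 fold change -0.35 ± 0.62). Of the 1363 exon bases of Hes5, 433 are shared with the antisense gene Gm20421, of 14232 in Notch1 1389 are shared with other genes, of 10782 in Notch2 541 are, and of 4219 in Dll1 867 are. A strand setting is not given in the sources used here, so reads of these stretches may have been left out or assigned to either gene.

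The glial factors overlapped between vectors. Sox9, a factor needed for astrocyte specification (chromosome 11, 112782224 to 112787760), was at 391, 322 and 601 CPM with AAV-GFP and 453.5, 249 and 536 CPM with AAV-A2A, with a log2 fold change of -0.05 ± 0.31. Nfia (chromosome 4, 97772734 to 98118874), a nuclear factor that switches on astrocyte genes, was at 72.5, 53.3 and 85.3 CPM against 63.2, 46.5 and 40.1 CPM (log2 fold change -0.47 ± 0.24). The astrocyte marker sum overlapped as well, at 24600.2 to 29412.1 CPM with AAV-GFP and 24776.6 to 38697.6 CPM with AAV-A2A.

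Neurod4, a proneural basic helix-loop-helix factor (chromosome 10, 130268152 to 130280240), had the largest log2 fold change of the 10 genes in this comparison, -5.35 ± 0.94. It was at 12.1 CPM in GFP-303, 129 CPM in GFP-306 and 15.6 CPM in GFP-307, and at 0.861, 1.48 and 1.41 CPM in A2A-309, A2A-310 and A2A-313. Every AAV-GFP library was above every AAV-A2A library, but 1 of them was far above the rest. Without GFP-306 the log2 fold change was -3.43.

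GFP-306 also carried pineal transcripts, which were noticed after the data had been examined and are given without a test. Tph1, the first enzyme of pineal serotonin and melatonin synthesis, was at 101 CPM in GFP-306, 0 in GFP-303 and 0.531 in GFP-307, and Crx, a pineal and photoreceptor homeobox factor, at 8.08 CPM in GFP-306 and 0 in the other 11 libraries. A list of 16 pineal genes chosen in this way, led by the arrestin gene Sag, summed to 599 CPM in GFP-306, 0.709 in GFP-303, 9.90 in GFP-307 and 0 to 2.25 in the AAV-A2A libraries, and all 16 had counts in GFP-306. Among 10765 genes with a mean of at least 5 CPM, Neurod4 ranked 8th for the excess of GFP-306 over the higher of the other 2 controls, behind Cplx3, Gnb3, Tulp1, Sag, Chgb, Pcsk2 and Catsper2. In GFP-303, where the pineal sum was 0.709 CPM, Neurod4 was at 12.1 CPM, and in GFP-307, where the sum was 9.90 CPM, at 15.6 CPM. The part of pineal RNA in the Neurod4 levels of the AAV-GFP libraries, and in the difference between vectors, was not tested.

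The 5 genes whose log2 CPM followed Neurod4 most closely over the 6 ACSA-2 libraries were Tuba1b (Pearson r = 0.996), Clip2 (0.986), Ddb1 (0.983), Galc (0.980) and Tsc22d2 (0.977). This is a description over 6 libraries that also share their vector groups. Their span was far smaller than that of Neurod4: Tuba1b, an alpha-tubulin gene, ran from 54.997 to 56.98 CPM with AAV-A2A and from 67.2 to 78.9 CPM with AAV-GFP.

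**Figure D2:**
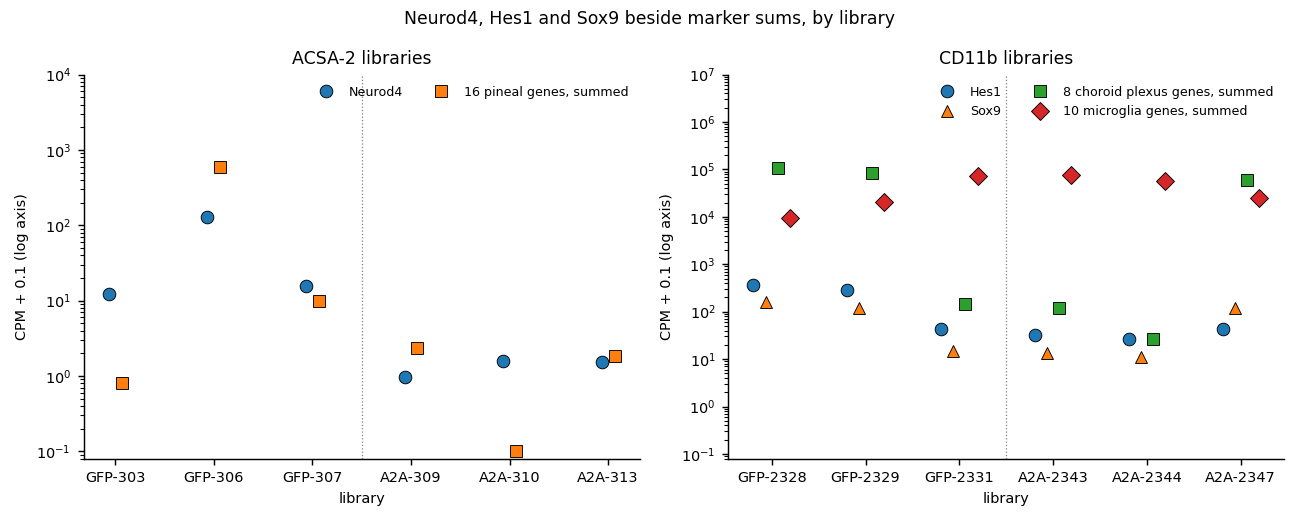
Left, Neurod4 and the sum of 16 pineal genes in the 6 ACSA-2 libraries. Right, Hes1, Sox9 and the sums of 8 choroid plexus and 10 microglia markers in the 6 CD11b libraries. Values are CPM with 0.1 added on a log axis, and a dotted line parts AAV-GFP from AAV-A2A libraries. Neurod4 and the pineal sum are both highest in GFP-306. Sox9 is high in the 3 libraries with high choroid plexus sums, Hes1 in 2 of them.

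The wider pathway was read from 7 lists of 104 genes, written with earlier results of these data known. Of the 94 genes that are not members, 92 were in the tables and 88 were tested in the ACSA-2 fraction, where 4 passed, 1 higher and 3 lower, against 3.36% of all genes. Their median log2 fold change was -0.12, beside 0.02 over all genes tested. Among receptors, Notch3, known from vascular mural cells, fell from 62.9, 48.0 and 68.3 CPM to 25.998, 14.8 and 9.76 CPM (log2 fold change -1.80 ± 0.34, adjusted p = 0.0205 by edgeR), while Notch4 was at 21.1 ± 8.18 and 28.8 ± 3.19 CPM and did not pass. Ncor1, a corepressor, rose from 82.2, 76.2 and 74.0 CPM to 139.9, 160.2 and 140.1 CPM (0.95 ± 0.16, adjusted p = 0.0114). Sox8, a relative of Sox9 that oligodendrocyte precursors also express, fell from 164, 116 and 181 CPM to 71.6, 44.0 and 53.0 CPM (-1.43 ± 0.24, adjusted p = 0.0107). As single libraries were left out, Ncor1 and Sox8 passed in 3 of 6 fits and Notch3 in 1, and none of them passed without GFP-307 or without A2A-310.

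By list, no ligand (0 of 5), no processing gene (0 of 27), no further Notch target (0 of 6) and no proneural gene (0 of 12) passed. Hey1, Heyl and Nrarp, genes known to be switched on by Notch, had log2 fold changes of 0.18 ± 0.18, -0.09 ± 0.24 and 0.30 ± 0.27. The most abundant genes per kb of the lists did not pass with edgeR either: Dner, a Notch ligand, at 0.12 ± 0.23, Ncstn, a gamma-secretase subunit, at -0.55 ± 0.22, Ctbp1, a corepressor, at 0.00 ± 0.24, Id3, an inhibitor of basic helix-loop-helix factors, at 0.64 ± 0.20, and Sox4, a neurogenic factor, at -0.02 ± 0.25. Neurod1, a relative of Neurod4, was at 0.177, 7.75 and 2.63 CPM with AAV-GFP and 0.611, 0 and 0.151 CPM with AAV-A2A, with its highest value in GFP-306 as well. It did not pass with edgeR (adjusted p = 0.339) but did with DESeq2 (-3.78, adjusted p = 0.0413), as did Id3 (0.64, adjusted p = 0.0302).

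Markers of other cells moved beside some of these genes. The 6 oligodendrocyte precursor markers summed to 374 to 576 CPM in AAV-GFP and 160 to 329 CPM in AAV-A2A libraries of the ACSA-2 fraction, without overlap. Their most abundant gene Cspg4 fell (log2 fold change -2.17 ± 0.24, adjusted p = 0.00226 by edgeR). Cspg4 is also in the list of mural markers, so this sum is not particular to precursors. Pdgfra (-0.39 ± 0.42), Olig1 (-0.26 ± 0.32) and Olig2 (0.06 ± 0.45) did not pass. The 8 mural markers, led by Vtn, summed to 4954 to 5157 CPM against 3567 to 5071 CPM and overlapped. Their part in the fall of Notch3 and Sox8 was not tested, and in bulk samples fewer cells of a type cannot be told apart from less RNA per cell.

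**Figure D3:**
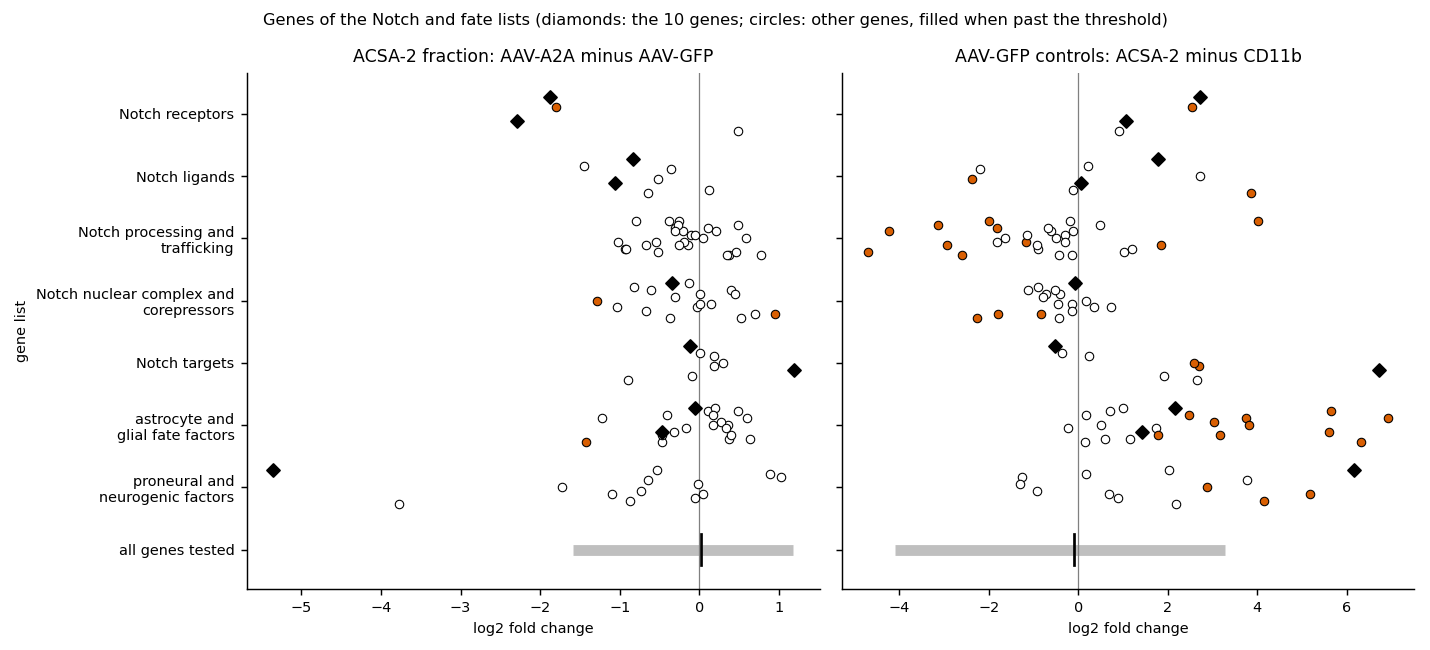
Log2 fold changes of the tested genes of 7 Notch and fate lists, left for AAV-A2A minus AAV-GFP in the ACSA-2 fraction and right for ACSA-2 minus CD11b in AAV-GFP controls. Diamonds are the 10 members, circles the other genes, filled where past the edgeR threshold (4 on the left, 31 on the right), and the grey bar spans all genes tested from the 5th to the 95th percentile, with a line at their median. On the left most circles lie close to 0, and on the right the glial fate factors lie mostly above 0.

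The same vectors were then compared in the CD11b fraction. Adora2a was higher there too with AAV-A2A, at 18.6, 45.4 and 15.4 CPM against 3.78, 4.67 and 8.28 CPM with AAV-GFP, without overlap. No member passed edgeR's test, as no gene did (0 of 16949, 0%), while 2704 genes (16%) had an unadjusted p below 0.05 and DESeq2 called 798 (5.86%). The members had a median log2 fold change of 0.44, beside -0.05 over all genes, and 4 had an unadjusted p below 0.05 (3 higher and 1 lower), beside 9.68% of all genes higher and 6.27% lower. In simulated counts with the spread of these libraries, edgeR called 0 of 186 genes changed by 2 on the log2 scale and 103 of 180 changed by 4.

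Notch1 was at 24.0, 39.3 and 64.4 CPM in GFP-2328, GFP-2329 and GFP-2331 and at 72.6, 141 and 111 CPM in A2A-2343, A2A-2344 and A2A-2347. The AAV-A2A libraries were all above the AAV-GFP libraries (log2 fold change 1.32 ± 0.43, edgeR adjusted p = 0.280). Notch2 was at 85.2, 77.7 and 104 CPM against 89.9, 206 and 466 CPM, with overlap, and its log2 fold change of 1.52 ± 0.62 (adjusted p = 0.308) was 0.66 without A2A-2347. Dll1 (1.35, 1.17 and 2.94 CPM against 3.58, 3.77 and 6.47 CPM, adjusted p = 0.332) and Rbpj (4.66, 4.55 and 7.26 CPM against 10.7, 14.6 and 10.98 CPM, adjusted p = 0.286) also did not overlap, with log2 fold changes of 1.34 ± 0.59 and 1.102 ± 0.39. With TMM scaling over the 6 CD11b libraries, on which overlap was counted in this fraction, 3 of the 10 members were higher without overlap and none lower, beside 12.6% of all genes higher and 10.9% lower without overlap. Jag1 was at 4.66, 3.91 and 2.97 CPM against 4.15, 11.1 and 12.6 CPM and overlapped (1.24 ± 0.56, adjusted p = 0.337). GFP-2328 and GFP-2329, the controls rich in choroid plexus markers, had microglia marker sums of 9605 and 20147 CPM, against 71523 CPM in GFP-2331. Among the controls, Notch1, Dll1 and Rbpj were each highest in GFP-2331. In A2A-2347, also rich in choroid plexus markers, they stood at 111, 6.47 and 10.98 CPM, above every control. The part of choroid plexus RNA in these values was not tested.

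Hes1 had the largest log2 fold change of the members in this fraction, -2.82 ± 0.78. It was at 359 CPM in GFP-2328, 289 in GFP-2329 and 43.1 in GFP-2331, and at 32.5, 26.5 and 42.3 CPM in the AAV-A2A libraries. GFP-2331 stood at about the level of A2A-2347: it was just above it on this scale and just below it with TMM scaling over the 6 CD11b libraries alone. It did not pass with edgeR (adjusted p = 0.280) and passed with DESeq2 (log2 fold change -2.87, adjusted p = 0.0122). The 2 high libraries had the highest choroid plexus sums. A2A-2347 had 59115 CPM of choroid plexus markers and 42.3 CPM of Hes1. Without the 3 choroid-rich libraries, a choice made after seeing the data that leaves GFP-2331 as the lone control, assumed to vary like the others, the log2 fold change was -0.57.

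Sox9 followed the choroid plexus sum more closely. It was at 159, 121 and 121 CPM in GFP-2328, GFP-2329 and A2A-2347 and at 14.5, 13.04 and 10.8 CPM in GFP-2331, A2A-2343 and A2A-2344, so that its log2 fold change between vectors, -1.02 ± 1.20 (edgeR adjusted p = 0.696), was -3.14 without A2A-2347 and -0.31 without the 3 choroid-rich libraries. In the same 3 libraries the microglia marker sum was 9605 to 25429 CPM, against 57967 to 75269 CPM in the other 3. The part of choroid plexus RNA in the levels of Hes1 and Sox9 was not tested.

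Nfia (31.8, 31.0 and 15.8 CPM against 24.5, 21.8 and 23.7 CPM) overlapped, with a log2 fold change of -0.22 ± 0.37 and an adjusted p of 0.789 by edgeR. Hes5 was at 0.417 to 1.33 CPM with AAV-GFP and 0.0568 to 1.28 CPM with AAV-A2A, and Neurod4 at 0 to 1.48 and 0 to 0.921 CPM. Of the 84 other pathway genes tested, none passed, 15 were higher and 7 lower at an unadjusted p below 0.05, and their median log2 fold change was 0.12, beside -0.05 over all genes. DESeq2 called 9 of them, among them the receptor proteases Adam10 (1.74, adjusted p = 0.0306) and Adam17 (1.60, adjusted p = 0.0383), higher, and the inhibitors of basic helix-loop-helix factors Id1 (-2.41, adjusted p = 0.0309) and Id3 (-2.53, adjusted p = 0.0400), lower. These 4 were picked after their values were seen. The choroid-rich libraries GFP-2328, GFP-2329 and A2A-2347 enter these calls, and the part of choroid plexus RNA in them was not tested.

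**Figure D4:**
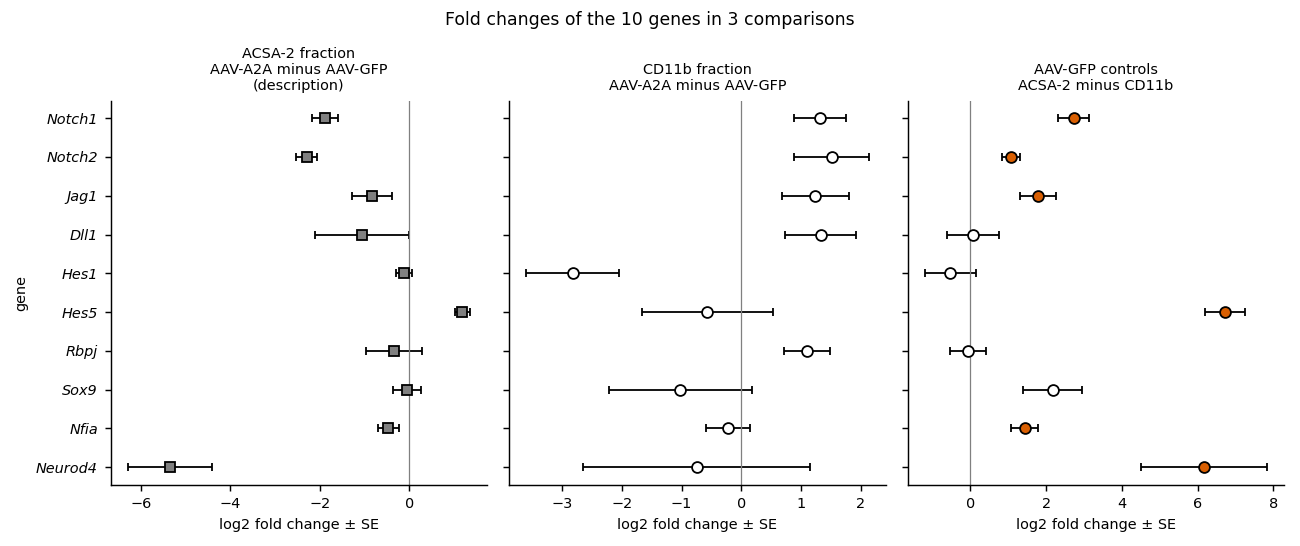
Log2 fold change with its SE for the 10 genes in 3 comparisons of 3 against 3 libraries. Squares on the left describe the contrast with which the members were listed. Circles are filled where the gene passed edgeR's threshold, which holds for 0 genes in the middle panel and 6 on the right. The 6 include Neurod4, whose value on the right shares its ACSA-2 controls with the left contrast and is a description. Notch1, Notch2, Jag1, Dll1 and Rbpj lie below 0 on the left and above 0 in the middle.

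The vector effects of the fractions were set side by side in a fit of all 12 libraries. The difference of the effects (ACSA-2 minus CD11b) was -3.23 ± 0.59 for Notch1 and -3.81 ± 0.67 for Notch2 on the log2 scale, -2.11 ± 0.75 for Jag1, -2.40 ± 1.25 for Dll1 and -1.49 ± 0.80 for Rbpj. It was 2.64 ± 0.78 for Hes1 and 1.69 ± 0.91 for Hes5. Of the members 2, Notch1 and Notch2, passed, beside 0.403% of 18602 genes, and with single libraries left out each kept this call in 2 of 12 fits. As the contrast holds the ACSA-2 comparison with which the members were listed, it is a description. Without the 3 choroid-rich libraries the values were -2.63 for Notch1, -2.83 for Notch2 and 0.40 for Hes1, and the count over all genes went from 75 to 0.

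The AAV-GFP controls show in which fraction each gene is found. Of the 10 members 6 passed, all higher in the ACSA-2 fraction, where 25.8% of 16980 genes passed with 12.7% higher and 13% lower in ACSA-2. These 6 include Neurod4, which was listed for a contrast with the same ACSA-2 controls, so its pass is no independent test. With Sox9, 7 members, again including Neurod4, were higher in ACSA-2 without overlap, as were 25.4% of all genes. Hes5 was at 104 ± 9.53 CPM in ACSA-2 and 0.982 ± 0.494 CPM in CD11b libraries, 106-fold apart (log2 difference 6.72 ± 0.52, edgeR adjusted p = 0.000611). Notch1 was at 279.5 ± 54.4 and 42.6 ± 20.4 CPM (2.72 ± 0.41, adjusted p = 0.00626), Jag1 at 13.2 ± 5.78 and 3.85 ± 0.847 CPM (1.78 ± 0.47, adjusted p = 0.0327), Nfia at 70.4 ± 16.1 and 26.2 ± 9.01 CPM (1.43 ± 0.35, adjusted p = 0.0269) and Notch2 at 185 ± 28.0 and 88.9 ± 13.4 CPM (1.07 ± 0.24, adjusted p = 0.0208). Hes5 and Notch1 passed in each of the 6 fits that left out 1 library, Nfia in 2, and Jag1 and Notch2 in 1, the other fits giving adjusted p values of 0.0513 to 0.121. Neurod4, at 52.4 ± 66.7 CPM in ACSA-2 and 0.739 ± 0.742 CPM in CD11b libraries, shares its ACSA-2 controls with the contrast that listed it, and its log2 difference of 6.17 ± 1.67, which was 4.24 without GFP-306, is a description.

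Sox9 was at 438 ± 146 CPM in ACSA-2 and 98.1 ± 74.9 CPM in CD11b controls and did not pass (2.17 ± 0.79, edgeR adjusted p = 0.0851), although every ACSA-2 library was above every CD11b library. It passed without GFP-2331 (1.65, adjusted p = 0.00771) and without the choroid-rich libraries (4.89, adjusted p = 0.00197), a fit in which GFP-2331 is the lone CD11b control and is assumed to vary like the ACSA-2 libraries. Hes1 changed direction with the same libraries: its log2 difference was -0.53 ± 0.67 (adjusted p = 0.592) with all controls, -1.02 (adjusted p = 0.0100) without GFP-2331 and 1.85 (adjusted p = 0.00815) without GFP-2328 and GFP-2329. Notch2 (0.81, adjusted p = 0.0680) and Jag1 (2.12, adjusted p = 0.0841) no longer passed in that fit. Dll1 (0.07 ± 0.70, adjusted p = 0.953) and Rbpj (-0.07 ± 0.47, adjusted p = 0.931) did not differ beyond their spread.

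Of the 89 other pathway genes tested between control fractions, 31 passed, 19 higher and 12 lower in ACSA-2, and their median log2 difference was 0.14, beside -0.09 over all genes. All 10 glial fate factors that passed, of 19 tested, were higher in ACSA-2, among them Sox21 (133 ± 43.5 against 1.08 ± 0.947 CPM, log2 difference 6.93), Sox8 (154 ± 33.7 against 1.92 ± 1.40 CPM, 6.33), Lhx2 (5.65) and Rorb (5.61). So were the proneural factor Insm1 (4.16) and the Notch regulators Dtx1 (4.02) and Dll3 (3.86). Of 27 processing genes 10 passed, 8 of them lower in ACSA-2, with the ubiquitin ligase gene Neurl1a (-4.70) and the receptor-modifying enzyme gene Mfng (-4.22) furthest apart. The genes named in this way, from Sox21 to Mfng, had edgeR adjusted p values of 0.000538 to 0.0294. Of these, Insm1 (1.18 ± 0.594 against 0.0625 ± 0.0458 CPM) passed in 0 of 6 fits with a single library left out, Dll3 in 2 and Neurl1a in 5, and the others in 6. Id3, the most abundant fate factor per kb, was at 1024 ± 226 and 463 ± 322 CPM and did not pass (1.16 ± 0.64, adjusted p = 0.223).

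With AAV-A2A the log2 difference between fractions had another sign than in the controls for several members, or a larger size. Notch2 was at 37.0 ± 9.27 CPM in ACSA-2 and 254 ± 192 CPM in CD11b libraries, and the log2 difference between fractions was -2.68 in the AAV-A2A libraries where it was 1.07 in the controls. For Notch1 the values were -0.46 and 2.72, for Jag1 -0.27 and 1.78, for Dll1 -2.29 and 0.07, and for Hes1 2.16 and -0.53. The AAV-A2A libraries of the fractions overlapped for Notch1 (46.9 to 108 CPM in ACSA-2, 72.6 to 141 CPM in CD11b). They also overlapped for Jag1 (4.003 to 9.92 and 4.15 to 12.6 CPM), so no order is shown for these genes. In the controls Dll1 (0.07 ± 0.70) and Hes1 (-0.53 ± 0.67) did not differ beyond their spread. These values share the ACSA-2 libraries of the contrast with which the members were listed and are given without a test.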

How the data were processed

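The values deposited by the authors are raw counts of reads per Ensembl gene, without normalization. Per their methods and processing notes, SMART-Seq cDNA libraries were read in single-end mode, trimmed with cutadapt 1.10, aligned to mm10 (GRCm38) with STAR 2.5.3 and counted with HTSeq 0.6.1p1, keeping uniquely aligned reads that fell on 1 gene. A strand setting is not given in the sources used here, and reads carry no molecular identifiers. Unnamed empty columns of 1 table were not used.

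Names, positions and exon lengths came from a GENCODE annotation of the same build. Each comparison was tested with edgeR 4.0.16 (R 4.3.3, TMM, filterByExpr, robust quasi-likelihood) over all genes, and a gene passed at a Benjamini-Hochberg adjusted p below 0.05 and an absolute log2 fold change above 0.32, the thresholds of the study. The deposited microglia and astrocyte tables were joined by gene identifier. Alternatives were DESeq2 1.42.0, limma-voom (limma 3.58.1), 2 other scalings, 2 filters, a joint fit and each library left out. On simulated counts with 200 genes changed by 2 on the log2 scale, edgeR called 115 of 194 in the ACSA-2, 0 of 186 in the CD11b and 6 of 192 in the control comparison. Each group has 3 libraries. P-values set the difference between groups against the spread between these libraries, which edgeR estimates with information shared over genes.

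The members, the pathway lists and the tests were chosen with earlier results of these data known. Named were the members, pathway genes past the threshold (at most 10 per comparison, by size), the most abundant gene of each list and the 5 genes most like Neurod4. Other names were chosen after values were seen, and some genes that the rule names are not reported here. Figures used matplotlib 3.10.9 (Python 3.11.15).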

Additional observations from a re-analysis of the deposited data

Results flagged for a closer look

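Notch1 was set apart because its AAV-A2A effect ran in opposite directions in the fractions. It was lower in all 3 AAV-A2A libraries of the ACSA-2 fraction (log2 fold change -1.88) and higher in all 3 of the CD11b fraction (1.32), without overlap in either, and the difference of the effects was -3.23 on the log2 scale. It passed edgeR's threshold in the fit of 12 libraries and in 2 of the 12 fits that left out 1 library, but the ACSA-2 contrast was known when the gene was listed, so it is a description and not an independent test. Of 14961 genes tested in both fractions, 331 (2.21%) were lower without overlap in the ACSA-2 and higher without overlap in the CD11b fraction. Of the CD11b controls, GFP-2328 and GFP-2329 (24.0 and 39.3 CPM of Notch1) were choroid-rich, and GFP-2331 was at 64.4 CPM. Of the CD11b AAV-A2A libraries, A2A-2347 (111 CPM) was choroid-rich, and A2A-2343 and A2A-2344 were at 72.6 and 141 CPM. The part of choroid plexus RNA in these values was not tested. In this flagging, groups of 3 libraries were not searched for single outlying samples. GFP-306 and 3 CD11b libraries stood apart for pineal or choroid plexus markers, as given above.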

How the results depend on the processing

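In the ACSA-2 comparison DESeq2 called 1071 genes and 8 pathway genes other than members, and the joint fit of 12 libraries called 156 and 0, against 553 and 4, and leaving out 1 library gave 272 to 448 and 0 to 4. In the CD11b comparison DESeq2 called 798 and 9, leaving out 1 library 0 to 0, and leaving out the choroid-rich libraries 3 genes, against 0. Between control fractions 4377 genes and 31 pathway genes passed, in AAV-A2A libraries 7755 and 49, and with 1 library left out 1927 to 5836 and 17 to 35. For the difference of effects 75 and 0 passed, with DESeq2 1521 and 14, with limma-voom 1 pathway gene, with RLE size factors 10 genes, with upper quartile scaling 0, with at least 10 counts in every library 345 and 5, without the choroid-rich libraries 0, and with 1 library left out 0 to 1286 and 0 to 20, the highest without GFP-2331. No paired analysis was possible because the groups share no replicate numbers.

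Member values of the difference between fractions changed sign in AAV-A2A libraries (Notch1 -0.46, Notch2 -2.68, Jag1 -0.27, Dll1 -2.29 and Hes1 2.16). For Notch1 and Jag1 the fractions overlapped there. Between control fractions they changed sign without the choroid-rich libraries (Dll1 -0.66 and Hes1 1.85). In the CD11b comparison they did so without the choroid-rich libraries (Hes5 0.65 and Nfia 0.52). With 1 library left out, Neurod4 in the CD11b comparison ranged from -1.74 to 0.23, and between control fractions Dll1 ranged from -0.18 to 0.60 and Rbpj from -0.34 to 0.19. The cause was not tested. Of the member values 128 of 129 in the ACSA-2 comparison and 179 of 187 in the difference of effects kept their size, with calls not counted. In the ACSA-2 comparison calls were lost, as Neurod4 passed in 3 and Notch1 in 5 of 6 fits with 1 library left out. In the CD11b comparison 134 of 138 kept their size or call, but no gene had passed, so no call could be lost. Between control fractions 116 of 159 kept their size or call. Upper quartile scaling shifted the median log2 value of all genes by -0.16 in the CD11b comparison and by 0.30 in the difference of effects. Under it Sox9 in the ACSA-2 comparison was 0.04 and Nfia in the difference of effects 0.0036, where the reported values were -0.05 and -0.31. Low counts limit Dll1, Rbpj, and, in the CD11b fraction, Hes5 and Neurod4.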

Other observations

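Pathway genes other than the members also had non-overlapping groups in opposite directions in the fractions, 7 of 84 against 558 of all 14961 genes tested in both (3.73%). Dtx4, a regulator of Notch trafficking (log2 fold change -1.02 in ACSA-2 and 2.33 in CD11b), Ep300, a histone acetyltransferase of the Notch nuclear complex (-0.82 and 1.41), Lfng, a sugar transferase acting on Notch (-0.67 and 1.38), Tcf7l2, a Wnt pathway factor (-0.46 and 0.92), Adam10, which cleaves Notch at the cell surface (-0.38 and 1.76), and Kat2a, an acetyltransferase (-0.31 and 0.87), were lower in ACSA-2 and higher in CD11b. Ncor1 was the exception (0.95 and -0.44). None of the 7 passed edgeR's test of the difference of effects, with adjusted p values of 0.0537 (Ep300) to 0.165 (Kat2a). These genes were picked after their values were seen. The choroid-rich libraries enter their CD11b values, and the part of choroid plexus RNA in these was not tested.

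Other marker lists had sums in CPM as follows. In the ACSA-2 fraction ependymal markers, led by 1500015O10Rik, ran from 723 to 2465, endothelial markers, led by Cldn5, from 354 to 653, erythrocyte markers, led by Hbb-bs, from 607 to 1440.2, neuronal markers, led by Ppp3ca, from 98.6 to 158, oligodendrocyte markers, led by Cnp, from 330.1 to 556, border macrophage markers, led by F13a1, from 63.4 to 115, choroid plexus markers from 643 to 1136 and neural progenitor markers from 40.4 to 74.3, the last without overlap between vectors (45.6 to 74.3 with AAV-GFP and 40.4 to 42.2 with AAV-A2A). In the CD11b fraction endothelial markers summed to 709 to 1645 with AAV-GFP and 417 to 538 with AAV-A2A, and erythrocyte markers to 1031 to 6055 and 59.3 to 259.7, both without overlap. Their part in the CD11b values of Notch1, Dll1 and Rbpj was not tested.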
